A study of Mus musculus with 6 samples.

Results

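The antioxidant defence genes described here are 37 genes whose products remove reactive oxygen species or keep the thiols of the cell reduced. They comprise the superoxide dismutases, catalase, the glutathione peroxidases, the peroxiredoxins with sulfiredoxin, the thioredoxin and glutaredoxin systems, the enzymes of glutathione synthesis, recycling and conjugation, the transcription factor NRF2 with its inhibitor KEAP1 and target enzymes, and an uncoupling protein. The genes were listed by name and role, with earlier results of these data known. Each of the 37 symbols matched 1 Ensembl gene among the 38293 genes counted. Of the 37, 35 passed the filter on low counts and were tested. The 2 others, *Gpx7* and *Gpx8*, had at most 11 reads in any library. By the compartment of the protein, 17 members were taken as cytosolic, 6 as mitochondrial (*Sod2*, *Prdx3*, *Txnrd2*, *Glrx2*, *Glrx5*, *Ucp2*), 4 as present in both compartments (*Gpx1*, *Gpx4*, *Prdx5*, *Gsr*) and 10 as located elsewhere or as regulators.

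RNA was sequenced from Lin-cKit+ FL cells of C57BL/6 embryos at embryonic day 14.5. These cells of the fetal liver lack lineage markers, carry c-Kit and include the hematopoietic stem and progenitor cells. The wt group held 3 embryos labelled hnRNPL wild-type. A description of the wt samples in the study names them L fl/fl, so that the groups may share the floxed alleles and differ in Cre. The hnRNP L deficient group held 3 embryos labelled as knockout, VavCre+hnRNP L fl/fl in the study, where the Vav promoter restricts Cre, and with it the loss of floxed *Hnrnpl*, to blood-forming cells. Each library came from a single embryo. The sort is given in the methods of the study, whereas the labels name fetal liver cells as the source and the whole embryo as the tissue. The study asked what the loss of hnRNP L, a splicing regulator, changes in these cells, and it also measured reactive oxygen species by flow cytometry, so that the genes that handle these species are of interest here.

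Superoxide that leaks from the respiratory chain is converted to hydrogen peroxide by superoxide dismutases, and the peroxide is broken down by catalase, by glutathione peroxidases, which use glutathione, and by peroxiredoxins, which use thioredoxin. Glutathione and thioredoxin are returned to their reduced form by reductases at the cost of NADPH. NRF2, encoded by *Nfe2l2*, is held down by KEAP1 and, once released, binds with small MAF proteins to antioxidant response elements near many of these genes, at sites where BACH1 competes with it as a repressor.

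Binding sites of this kind were looked for in the RefSeq promoters of GRCm38.p6, taken as the 250 bases before and the 50 bases after a transcription start. Promoters were matched for 32 members; *Gclc*, *Gsr*, *Gsta4*, *Hmox1* and *Prdx6* were not matched. The core of the antioxidant response element, TGACNNNGC, was looked for on either strand. It was found for 8 of these 32 members (25%) and for 14% of all 27025 genes. Counted by promoter, it stood in 8 of the 45 promoters of these members and in 12.4% of all 32851 promoters. The 8 members were *Gclm*, *Mgst1*, *Nfe2l2*, *Prdx1*, *Sod1*, *Srxn1*, *Txnrd1* and *Ucp2*. The core of *Srxn1* lies 28 to 36 bases after the start and is not printed. The AP-1 element TGAGTCA is often part of such sites and can overlap the core on the other strand. It was found for *Glrx*, *Gstp1*, *Prdx1* and *Srxn1*, which are 4 of the 32 members (12.5%), and for 5.95% of all genes. Counted by promoter, 5 of the 45 promoters of these members held it, beside 5.2% of all promoters. Of the 5 members that differed between the genotypes below, *Srxn1* and *Txnrd1* held a match and *Sod2*, *Gss* and *Cat* held none in this window. The sites of *Srxn1* and *Txnrd1* are printed together with those of *Prdx1* and *Gclm*, members that hold a match and did not pass the test. Each sequence reads 5′ to 3′ on the strand that carries the motif, with the motif in capitals.
Srxn1, AP-1 element, chr2:152105408-152105442, 102 bases before the start, same strand as the gene: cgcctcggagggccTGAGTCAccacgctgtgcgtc
Srxn1, AP-1 element, chr2:152105465-152105499, 45 bases before the start, same strand as the gene: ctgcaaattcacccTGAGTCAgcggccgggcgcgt
Txnrd1, core, chr10:82859100-82859136, 92 bases before an internal start, opposite strand: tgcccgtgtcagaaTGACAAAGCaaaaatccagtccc
Prdx1, core, chr4:116685452-116685488, 133 bases before the start, opposite strand: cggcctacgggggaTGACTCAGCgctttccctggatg
Gclm, core, chr3:122245409-122245445, 134 bases before the start, opposite strand: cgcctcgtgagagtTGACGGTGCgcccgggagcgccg
In *Prdx1* the core and an AP-1 element overlap on opposite strands. A match describes the letters of the window only, and binding was not measured.

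Reads counted on genes ranged from 55952160 to 76157226 per library, and 3 reads corresponded to between 0.0394 and 0.0536 CPM (CPM are counts scaled to a common library size by TMM). As a check of genotype, *Hnrnpl* lay at 528 to 552 CPM in wt and at 242 to 288 CPM in hnRNP L deficient embryos, -1.01 on the log2 scale by edgeR (adjusted p = 0.00724). Across the 14396 genes tested, 9.32% were called higher and 9.85% lower in hnRNP L deficient cells at an edgeR adjusted p under 0.05, and in 22.7% every hnRNP L deficient library lay above every wt library, and in 22.7% below. With total counts in place of TMM the called genes split into 1066 higher and 1751 lower, against 1341 and 1418. The wt embryo 2 stood apart from the other libraries in its granulocyte and monocyte precursor genes: the summed CPM of 20 such markers was 9936 in it, 648 and 1664 in wt embryos 1 and 3, and 268 to 1283 in the hnRNP L deficient embryos. *Mpo* alone gave 5615 CPM of the sum in wt embryo 2, which was the highest wt library for every marker of the list. *Ngp* and *Ltf* were higher still in hnRNP L deficient embryos 2 and 3. *Ngp* had 19.8 CPM in wt embryo 2 against 55 and 70.3 CPM there, and *Ltf* 9.66 against 36.8 and 44.6 CPM. In bulk RNA, fewer cells of a type and less RNA per cell cannot be told apart.

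Of the 35 members tested, 4 were called higher in hnRNP L deficient cells and 1 lower, which is 11.4% and 2.86% of the members against the 9.32% and 9.85% of all genes given above. *Gss*, *Srxn1*, *Txnrd1* and *Sod2* rose by between 0.48 and 0.61 on the log2 scale, and *Cat* fell by 0.60. The share of members that rose was near that of all genes. All hnRNP L deficient libraries lay above all wt libraries for 10 members and below them for 5, against the 22.7% of all genes on either side. The median log2 fold change was -0.04 over the members (lowest -2.47, highest 0.72) and -0.03 over all genes tested, and the median size of the change, without its sign, was 0.22 for members and 0.30 for all genes. The summed CPM of all members was between 6106 and 6292 in the wt libraries and between 6219 and 6373 in the hnRNP L deficient libraries, so that the groups overlapped in total.

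**Figure D1:**
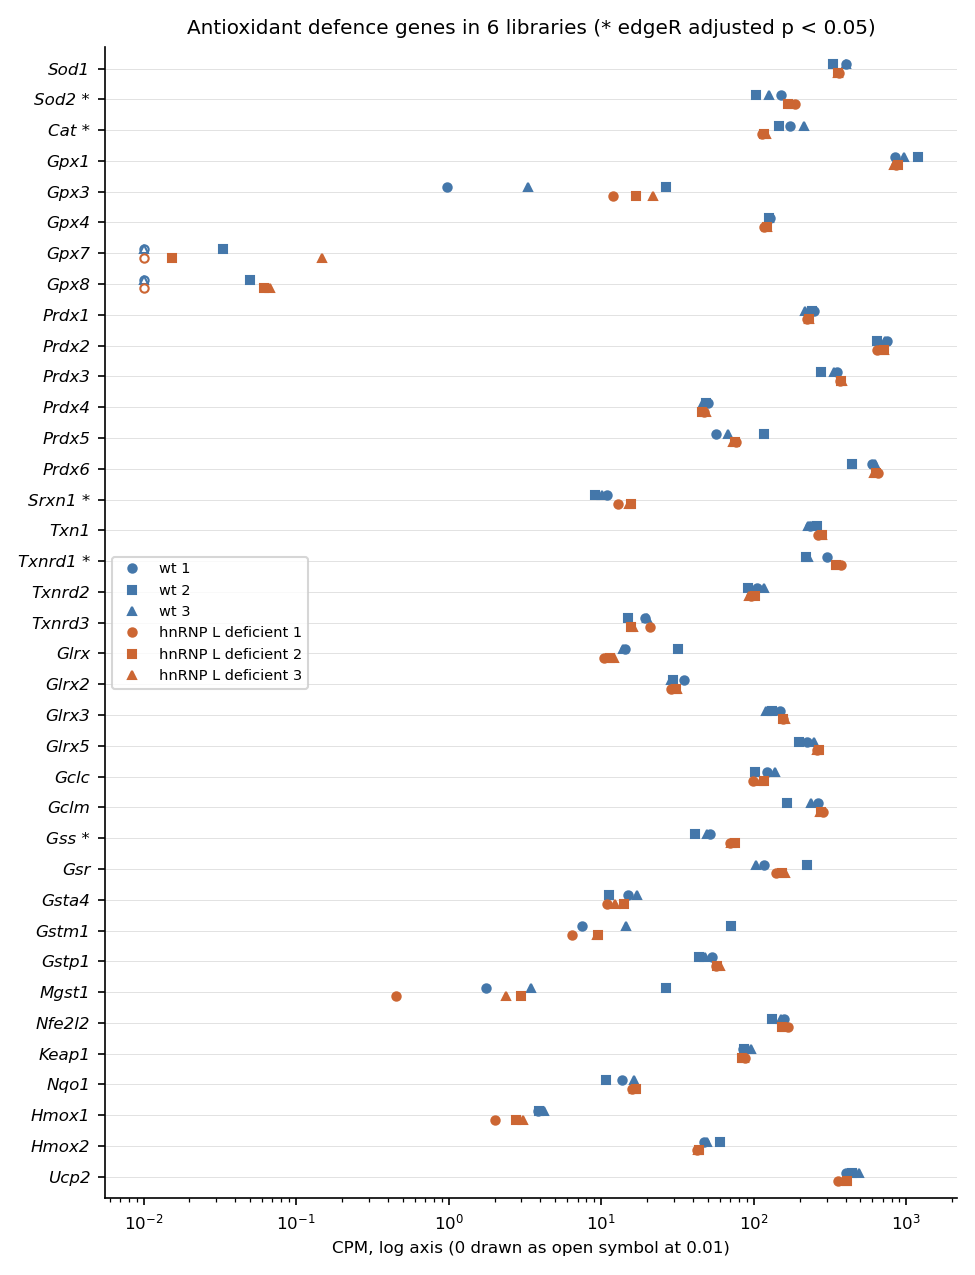
CPM of the 37 members on a log axis in each of the 6 libraries, with wt in blue, hnRNP L deficient in orange and embryos 1 to 3 as circle, square and triangle; open symbols stand for 0. The members ran from the *Gpx7* and *Gpx8* counts near 0 to *Gpx1* at 827 to 1198 CPM, and wt embryo 2 (blue square) was the highest wt library for *Gpx3*, *Gsr*, *Prdx5*, *Gstm1* and *Mgst1*.

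Levels of different genes were compared per kilobase of annotated exon, on the CPM per kb scale, where a gene with long, rarely used exons comes out too low. In wt cells the most abundant member was *Gpx1*, the main glutathione peroxidase of blood cells, at 694 ± 127 CPM per kb (SD, n = 3). *Prdx2*, an abundant peroxiredoxin of red cells, followed at 232 ± 17.4 CPM per kb, *Txn1*, cytosolic thioredoxin, at 228 ± 15.9 and *Prdx3*, the mitochondrial peroxiredoxin, at 217 ± 25.7. These last 3 levels lay within their spreads of each other. *Prdx6* and *Sod1* came next at 116 ± 20.7 and 95.3 ± 10.6 CPM per kb. At the lower end *Glrx2*, *Srxn1*, *Glrx* and *Hmox1* were between 2.29 and 3.65 CPM per kb. In hnRNP L deficient cells *Gpx1* was again the most abundant, at 593 ± 19.6 CPM per kb, and *Txn1* (262 ± 8.94) and *Prdx3* (252 ± 4.03) stood above *Prdx2* (226 ± 12.1).

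The dismutases and catalase moved in different directions. *Sod2* (chromosome 17, 13006846 to 13040063 of GRCm38), the manganese superoxide dismutase of the mitochondrial matrix, had 150, 104 and 125 CPM in the wt embryos, in the order of their numbers, and 186, 167 and 179 CPM in those deficient for hnRNP L. All hnRNP L deficient libraries were above all wt libraries. By edgeR the rise was 0.48 on the log2 scale (standard error 0.133, adjusted p = 0.0455), close to the threshold. *Sod1*, the copper-zinc enzyme of the cytosol, had 405, 330 and 401 CPM in wt and 363, 356 and 358 CPM in hnRNP L deficient embryos. The hnRNP L deficient values lay inside the wt range, with a log2 fold change of -0.08 (standard error 0.0966, adjusted p = 0.597). *Cat* (chromosome 2, 103453849 to 103485160), the peroxisomal enzyme that splits hydrogen peroxide without a cofactor to be recycled, had 172, 147 and 213 CPM in wt and 114, 117 and 120 CPM in hnRNP L deficient embryos. The hnRNP L deficient libraries all lay below the lowest wt library, with a log2 fold change of -0.60 (standard error 0.133, adjusted p = 0.0276). Of the 50-base windows of *Sod2* transcripts, 21% also occur in transcripts of other genes, where reads that align to several places were not counted, whereas *Cat* shared none.

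None of the glutathione peroxidases passed the test in all 6 libraries. *Gpx1* had 838, 1198 and 965 CPM in wt embryos and 853, 884 and 827 CPM in hnRNP L deficient embryos. The groups overlapped and wt embryo 2 was the highest (log2 fold change -0.23, adjusted p = 0.255). *Gpx4*, which reduces lipid peroxides in membranes, was nearly level, at 128, 125 and 126 CPM in wt and 117, 122 and 122 CPM in hnRNP L deficient embryos. Its groups did not overlap, but the log2 fold change was only -0.07 (standard error 0.061, adjusted p = 0.435), and 34.7% of its 50-base windows are shared with other genes, most of them with the pseudogene *Gpx4-ps2*. *Gpx3*, the secreted plasma enzyme, had 0.972, 26.6 and 3.33 CPM in wt and 12, 16.9 and 21.9 CPM in hnRNP L deficient embryos. The hnRNP L deficient libraries were above wt embryos 1 and 3 and below wt embryo 2, so that the log2 fold change of 0.72 came with a standard error of 1.16 (adjusted p = 0.689). *Gpx7* and *Gpx8*, enzymes of the endoplasmic reticulum, were at or below 0.147 CPM in every library.

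The peroxiredoxins were the most even group of members. The cytosolic *Prdx1* and *Prdx2*, *Prdx4* of the endoplasmic reticulum, *Prdx5* of mitochondria, peroxisomes and cytosol, and *Prdx6*, which uses glutathione, had log2 fold changes between -0.10 and 0.19 with adjusted p-values from 0.348 up, and their groups overlapped. *Prdx2* had 745, 646 and 728 CPM in wt and 647, 711 and 711 CPM in hnRNP L deficient embryos. Its log2 fold change was -0.03 (standard error 0.0896, adjusted p = 0.809). *Prdx3*, which takes up most hydrogen peroxide in the mitochondrial matrix, had 349, 278 and 337 CPM in wt and 366, 376 and 377 CPM in hnRNP L deficient embryos. The groups did not overlap, but the log2 fold change of 0.22 (standard error 0.1) did not pass the test (adjusted p = 0.161). *Srxn1* (chromosome 2, 152105516 to 152111376), which encodes sulfiredoxin, the enzyme that restores overoxidized peroxiredoxins, had 10.9, 9.16 and 10.1 CPM in wt and 12.9, 15.7 and 15.3 CPM in hnRNP L deficient embryos. All hnRNP L deficient libraries were higher, by 0.54 on the log2 scale (standard error 0.138, adjusted p = 0.0369), at a level far below that of the peroxiredoxins on which its product acts. *Srxn1*, whose promoter holds the AP-1 elements printed above, lost the call with total counts in place of TMM (0.47, adjusted p = 0.0532).

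Of the thioredoxin and glutaredoxin systems, *Txnrd1* was the member that rose. *Txnrd1* (chromosome 10, 82833951 to 82897712), the cytosolic reductase of thioredoxin, had 304, 220 and 228 CPM in wt and 372, 348 and 350 CPM in hnRNP L deficient embryos. No wt library reached the lowest hnRNP L deficient library. The log2 fold change was 0.51 (standard error 0.131, adjusted p = 0.0379). Its substrate *Txn1* had 234, 259 and 227 CPM in wt and 265, 281 and 281 CPM in hnRNP L deficient embryos. Those groups did not overlap either, with a log2 fold change of 0.20 (standard error 0.0783) and an adjusted p of 0.108. The mitochondrial reductase *Txnrd2* and the testis-rich *Txnrd3* had log2 fold changes of -0.10 and -0.05, with groups that overlapped. Among the glutaredoxins, which reduce disulfides with glutathione, *Glrx* had a log2 fold change of -0.82 (adjusted p = 0.118), with 31.9 CPM in wt embryo 2, 14.3 and 14 CPM in the other wt embryos and 10.5 to 12.2 CPM in hnRNP L deficient embryos. The iron-sulfur cluster glutaredoxins *Glrx3* and *Glrx5* both had 0.23 (adjusted p = 0.110 and 0.123), with every hnRNP L deficient library above the wt libraries. The mitochondrial *Glrx2* had -0.03.

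Glutathione is made by glutamate-cysteine ligase, whose catalytic and modifier subunits are *Gclc* and *Gclm*, and then by glutathione synthetase, *Gss*. *Gss* (chromosome 2, 155563181 to 155592810) had 51.5, 41.1 and 49.5 CPM in wt and 69.7, 75.5 and 71.2 CPM in hnRNP L deficient embryos. The groups were well apart, and the log2 fold change of 0.61 (standard error 0.0988, adjusted p = 0.0154) was the largest rise among the members called. *Gss* overlaps genes on the opposite strand (*Acss2*, *Gssos1* and *Gssos2*), and the strand setting of the counting is not given in the sources used here. The ligase subunits did not pass the test. *Gclm* had 264, 164 and 238 CPM in wt and 283, 276 and 270 CPM in hnRNP L deficient embryos, with groups that did not overlap (log2 fold change 0.32, adjusted p = 0.201). *Gclc* had -0.15 (adjusted p = 0.4). *Gsr*, the reductase that recycles oxidized glutathione, had 116, 225 and 103 CPM in wt and 139, 154 and 161 CPM in hnRNP L deficient embryos. As for *Gpx3*, wt embryo 2 was above and the other wt embryos below all hnRNP L deficient embryos, and the log2 fold change was 0.03 (standard error 0.297, adjusted p = 0.944).

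The glutathione S-transferases, which attach glutathione to reactive compounds, held the largest fold changes and the widest spreads. *Mgst1*, a microsomal transferase, had 1.76, 26.8 and 3.47 CPM in wt and 0.45, 2.97 and 2.36 CPM in hnRNP L deficient embryos. *Gstm1* had 7.44, 70.6 and 14.6 CPM in wt and 6.41, 9.53 and 9.32 CPM in hnRNP L deficient embryos. Both were highest in wt embryo 2 by far, and the groups overlapped. The log2 fold changes of -2.47 (standard error 1.24, adjusted p = 0.207) and -1.87 (standard error 0.876, adjusted p = 0.183) therefore did not pass the test. *Gstp1* had 0.26 (adjusted p = 0.0749), with all hnRNP L deficient libraries above the wt libraries; 33.7% of its 50-base windows are shared, most of them with *Gstp2*. *Gsta4* had -0.22 with overlapping groups.

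**Figure D2:**
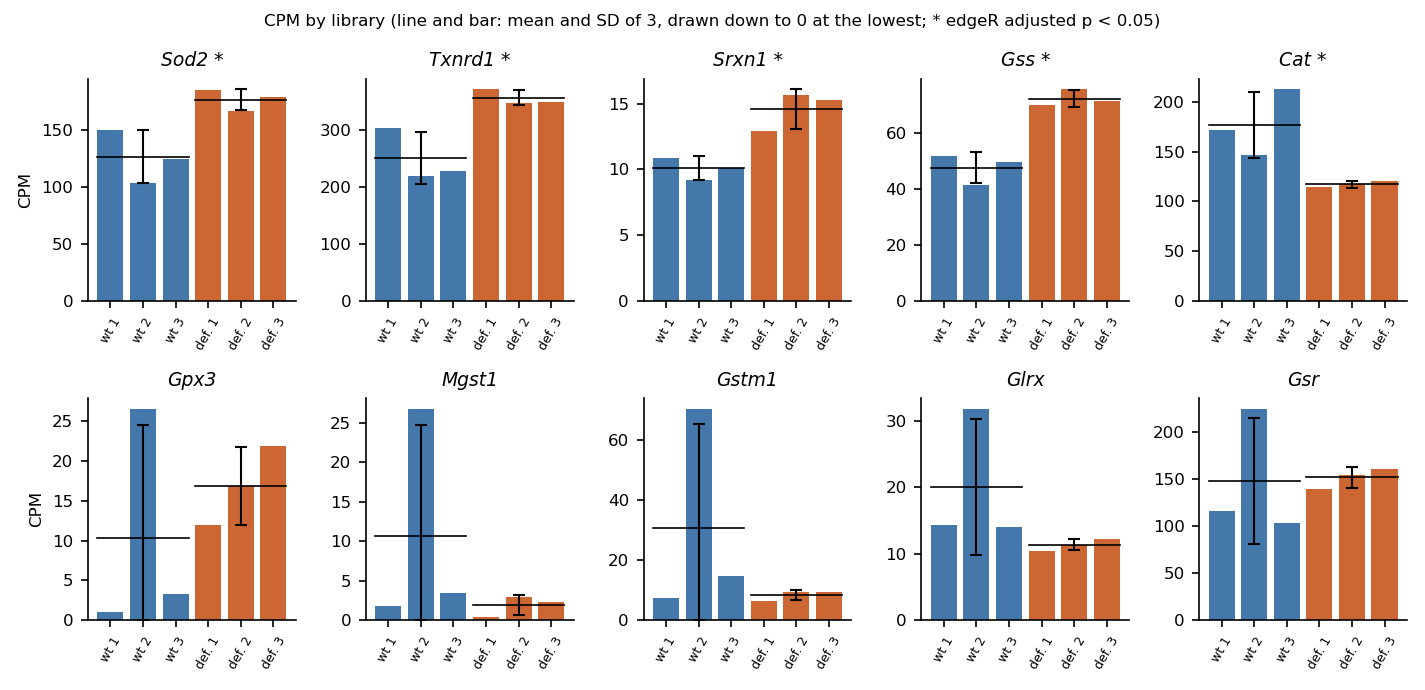
CPM of the 5 members called (upper row) and of the 5 tested members with the largest SD relative to the mean in wt embryos (lower row) in wt (blue) and hnRNP L deficient (orange) embryos 1 to 3, with the mean as a line and the SD as an error bar. In the upper row the groups do not overlap, and in the lower row wt embryo 2 stands above the other wt embryos, at 26.6 CPM for *Gpx3* and 70.6 CPM for *Gstm1*.

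The genes for NRF2 and for its inhibitor KEAP1 were nearly level. *Nfe2l2* had 159, 131 and 151 CPM in wt and 167, 154 and 160 CPM in hnRNP L deficient embryos, and *Keap1* had 84.7, 85.7 and 95.9 CPM against 88.0, 83.7 and 86.5 CPM. Both sets of groups overlapped, with log2 fold changes of 0.13 (standard error 0.0889, adjusted p = 0.337) and -0.04 (standard error 0.074, adjusted p = 0.693). Members counted as targets of NRF2 went different ways, and those named here are not a full list. *Srxn1* and *Txnrd1* rose. *Gclc* (-0.15), *Gclm* (0.32), *Prdx1* (-0.05), *Gsr* (0.03) and *Gstm1* (-1.87) were not called. *Nqo1*, a quinone reductase, had 0.26 (adjusted p = 0.284), and *Hmox1*, the inducible heme oxygenase, had -0.62 (adjusted p = 0.0867) at 3.87, 3.94 and 4.21 CPM in wt and 2.02, 2.77 and 3.05 CPM in hnRNP L deficient embryos, all of them below the wt values. *Hmox2*, the constitutive heme oxygenase, had 47.2, 60.3 and 49.7 CPM in wt and 42.7, 43.7 and 43.1 CPM in hnRNP L deficient embryos, lower in each, with a log2 fold change of -0.28 (adjusted p = 0.0950). *Ucp2*, an uncoupling protein of the inner mitochondrial membrane, had -0.20 (adjusted p = 0.208) with overlapping groups.

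Compared by compartment, 3 of the 17 cytosolic members were called higher and none lower, 1 of the 6 mitochondrial members was called higher and none lower, none of the 4 members of both compartments was called, and of the 8 other members tested 1 was called lower. At an unadjusted p under 0.05 there were 7 cytosolic members (6 higher, 1 lower), 2 mitochondrial members, both higher, none of the members of both compartments and 3 other members, all lower. These 12 members are 34.3% of those tested, and 37.6% of all genes passed the same threshold, 17.6% higher and 20.1% lower. The median log2 fold change was 0.188 for cytosolic members and 0.094 for mitochondrial members. The summed CPM of mitochondrial members was 1265, 1140 and 1348 in wt embryos and 1293, 1348 and 1343 in hnRNP L deficient embryos. That of cytosolic members was 3252, 2771 and 3117 in wt embryos and 3267, 3323 and 3297 in hnRNP L deficient embryos. The mitochondrial sums overlapped between the groups, and the cytosolic sums of hnRNP L deficient embryos (mean 3296, SD 27.7) lay just above the highest wt sum, with a wt mean of 3047, a wt SD of 248 and wt embryo 2 the lowest. The mean log2 CPM of mitochondrial members exceeded that of cytosolic members by 1.02, 0.79 and 1.00 in wt embryos and by 1.02, 0.99 and 1.00 in hnRNP L deficient embryos, so that the balance of the compartments was alike in all libraries except wt embryo 2. The medians depended on which genes were counted: with the members of both compartments added they were -0.035 for the cytosolic and -0.049 for the mitochondrial class.

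**Figure D3:**
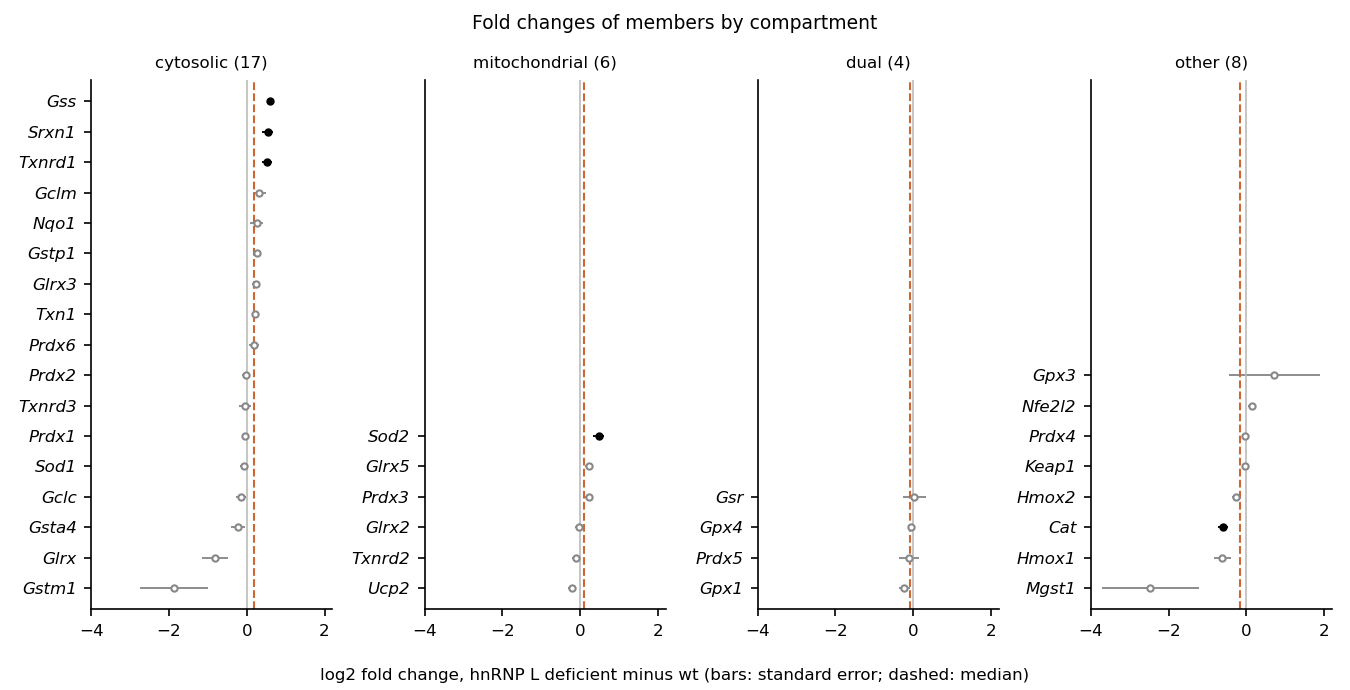
Log2 fold change (hnRNP L deficient minus wt) of the 35 members tested, by compartment, with standard errors as bars, the median of each class as a dashed line and filled points for members at an edgeR adjusted p under 0.05; dual stands for members of both compartments. Called members lie in the cytosolic (*Gss*, *Srxn1*, *Txnrd1*), mitochondrial (*Sod2*) and other (*Cat*) classes.

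**Figure D4:**
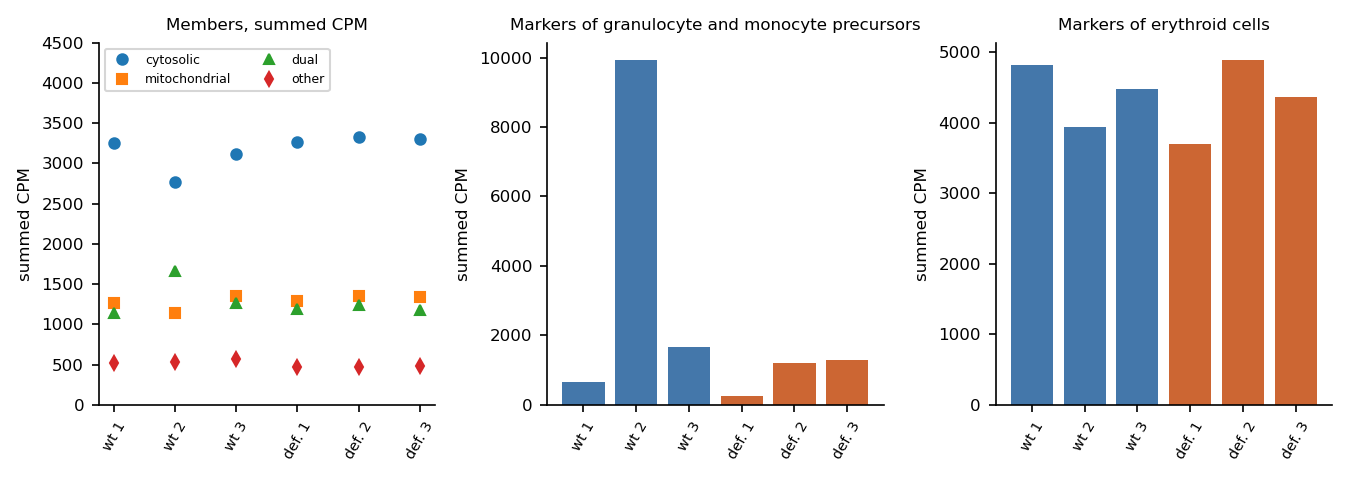
Summed CPM per library of the members of each compartment class (left; dual stands for members of both compartments) and of the markers of granulocyte and monocyte precursors (middle) and erythroid cells (right). The precursor sum was 9936 CPM in wt embryo 2 and at most 1664 CPM elsewhere, and the sum of members of both compartments was also highest there, at 1664 CPM.

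The calls were set beside those made without single libraries and with other tools. Without wt embryo 2, the library rich in granulocyte and monocyte precursor markers, 7 members were called higher and 1 lower by edgeR, against 11.4% and 12.7% of all genes. The 5 members called above remained called, and *Gpx3* (log2 fold change 2.96, adjusted p = 0.0186), *Gsr* (0.47, adjusted p = 0.0117) and *Txn1* (0.26, adjusted p = 0.0246) joined them, all higher in hnRNP L deficient cells. *Gstm1* and *Mgst1* shrank to -0.39 and -0.44, and *Prdx5* changed from -0.10 to 0.27. Without wt embryo 1, 6 members were called higher and 3 lower, against 15.7% and 16.8% of all genes, with *Glrx3*, *Gstp1*, *Gstm1* and *Hmox2* joining the 5. When wt embryo 3 or any of the hnRNP L deficient embryos was left out, edgeR called no member, 6 to 11 members had an unadjusted p under 0.05 (24.9% to 33.7% of all genes did), and of all genes only 5 to 15 were called higher and 0 to 2 lower. DESeq2 on all libraries called 4 members higher and 3 lower, against 12.4% and 14.3% of all genes, adding *Glrx* (-0.80, adjusted p = 0.0274) and *Hmox1* (-0.60, adjusted p = 0.0452) to the 5. Without wt embryo 2, *Glrx* was at -0.31 in DESeq2 (adjusted p = 0.0723). Limma-voom with sample weights called 8 higher and 2 lower, against 17.6% and 19.1%. In DESeq2 fits without each library in turn, chosen after seeing the data, *Gss*, *Srxn1*, *Txnrd1* and *Cat* were called in 6 of 6 and *Sod2* in 4 of 6. In wt embryo 1 and hnRNP L deficient embryo 1, whose label numbers share their first part, as do those of hnRNP L deficient embryos 2 and 3, the ratio of hnRNP L deficient to wt CPM was 1.35 for *Gss*, 1.24 for *Sod2*, 1.22 for *Txnrd1*, 1.18 for *Srxn1* and 0.662 for *Cat*. The sources do not say what the shared part stands for. If it marks a litter, the spread between hnRNP L deficient embryos 2 and 3, the only hnRNP L deficient libraries in the exon bins, would be that of a single litter.

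The summed markers of some cell types differed between the genotypes, and those of others overlapped. The summed CPM of 12 stem and progenitor markers was 1085 to 1528 in wt and 863 to 974 in hnRNP L deficient embryos, with 6 of 12 called lower. That of 15 hepatocyte markers was 133 to 278 against 27.9 to 86.5 (2 of 14 tested called lower). That of 15 macrophage markers, which include the member *Hmox1*, was 19.2 to 40.3 against 7.46 to 13.3 (4 of 13 tested called lower). That of 12 stromal and endothelial markers was 24.4 to 47.9 against 16.4 to 18.5 (1 of 9 tested called higher and 2 lower). Sums of 19 erythroid markers overlapped (3940 to 4826 against 3706 to 4894, 2 called lower). So did those of 10 mast cell and basophil markers (83.2 to 357 against 68.8 to 132, none called). Those of 11 megakaryocyte markers (125 to 173 against 117 to 151, 2 called higher and 2 lower) overlapped too. The sums of the 20 granulocyte and monocyte precursor markers given above also overlapped, with 2 called lower. Of all genes tested, 9.32% were called higher and 9.85% lower. No marker gene was at 0 in all libraries. *Kit*, the gene of the sort marker c-Kit, had 423, 488 and 656 CPM in wt and 368, 325 and 330 CPM in hnRNP L deficient embryos. It was called lower (log2 fold change -0.62, edgeR adjusted p = 0.0402). *Kit* and *Myb* (420 to 562 CPM over all libraries) made up most of the stem and progenitor sum, and *Myb* was not called. The part of cell composition in the differences of *Cat*, *Sod2*, *Gss*, *Srxn1* and *Txnrd1* was not tested.

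Further genes of the pathway, 68 genes listed by their role, gave 4 called higher and 9 called lower of 65 tested, which is 6.15% and 13.8% of them beside the 9.32% and 9.85% of all genes. *Bach1*, the repressor that competes with NRF2, had 61.3, 61.6 and 59.1 CPM in wt and 41.9, 41.7 and 39.6 CPM in hnRNP L deficient embryos. The embryos of each genotype were nearly equal, and the fall of 0.56 on the log2 scale (standard error 0.0667, adjusted p = 0.0102) had the smallest adjusted p of the list. *Mafk*, a small MAF partner of both factors, rose by 0.38 (adjusted p = 0.0461), while *Cul3*, the ubiquitin ligase scaffold that KEAP1 recruits to NRF2, had 0.04 (adjusted p = 0.720) with overlapping groups.

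*Txnip*, which binds and inhibits thioredoxin, had 91.6, 125 and 136 CPM in wt and 59.6, 66.0 and 61.5 CPM in hnRNP L deficient embryos. All hnRNP L deficient libraries were lower, by -0.92 on the log2 scale (standard error 0.146, adjusted p = 0.0148). *Txn2*, the mitochondrial thioredoxin, had 258, 233 and 252 CPM in wt and 324, 309 and 316 CPM in hnRNP L deficient embryos. It rose in each, by 0.35 (standard error 0.0729, adjusted p = 0.0237). *Slc7a11*, the cystine importer that feeds glutathione synthesis, was low throughout, at 1.26, 2.4 and 1.35 CPM in wt and 1.88, 2.36 and 2.55 CPM in hnRNP L deficient embryos, with overlapping groups (0.44, adjusted p = 0.350).

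Of 8 genes grouped around NADPH supply, 1 was called higher and 2 lower. These are 12.5% and 25% of the group, beside 9.32% and 9.85% of all genes. The group includes *Tkt* and *Taldo1*, whose products do not make NADPH themselves. *G6pdx* and *Pgd* had mean CPM of 129 and 258 in wt and 135 and 271 in hnRNP L deficient embryos, with overlapping groups. Neither was called, at log2 fold changes of 0.06 and 0.07 (edgeR adjusted p = 0.754 and 0.812). Without wt embryo 2, edgeR called *Pgd* higher (0.33, adjusted p = 0.0104) and did not call *G6pdx* (0.18, adjusted p = 0.126). *Nnt*, the proton-driven transhydrogenase of the inner mitochondrial membrane, had 45.3, 65.8 and 45.2 CPM in wt and 32.6, 31.1 and 30.6 CPM in hnRNP L deficient embryos, a log2 fold change of -0.73 (adjusted p = 0.0250). *Idh2*, the mitochondrial isocitrate dehydrogenase, had 148, 248 and 182 CPM against 114, 116 and 105 CPM (-0.79, adjusted p = 0.0284). Both mitochondrial sources were thus lower in all hnRNP L deficient libraries, and wt embryo 2 was the highest for each. Without wt embryo 2 they were still called, at -0.52 and -0.56. The cytosolic *Idh1* was also lower in all hnRNP L deficient libraries. It had 23.3, 75.9 and 27 CPM in wt and 13.1, 17.6 and 17 CPM in hnRNP L deficient embryos. Its log2 fold change of -1.40 was not called by edgeR (adjusted p = 0.0913). Without wt embryo 2 it was called, at -0.66 (edgeR adjusted p = 0.0199). *Me1*, the cytosolic malic enzyme, had 0.486, 0.0834 and 0.262 CPM in wt and 1.71, 1.5 and 1.97 CPM in hnRNP L deficient embryos, a rise of 2.64 (standard error 0.563, adjusted p = 0.0253) at a level that stayed low.

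The other genes called were *Sesn2* (0.87, adjusted p = 0.0159), *Sesn1* (-0.75, adjusted p = 0.0110), the FOXO transcription factor *Foxo4* (-0.66, adjusted p = 0.0142), the transferase *Gstm5* (-0.83, adjusted p = 0.0144), the methionine sulfoxide reductase *Msrb3* (-1.5, adjusted p = 0.0351) and *Osgin1* (-1.60, adjusted p = 0.0398). Sestrins are stress-induced proteins, and *Sesn1* and *Sesn2* changed in opposite directions. None of the 6 NADPH oxidase subunits, which make superoxide in phagocytes, was called, and all had negative log2 fold changes (-1.96 to -0.72) with wt embryo 2 the highest library of each. Without wt embryo 2 *Cybb* turned from -1.14 to 0.49, and the others lay between -0.87 and -0.25. Their summed CPM was 222, 808 and 306 in wt and 163, 240 and 248 in hnRNP L deficient embryos. The 5 genes for making and inserting selenocysteine had log2 fold changes between 0.05 and 0.26, and none was called. Selenocysteine is the residue at the active site of thioredoxin reductases and of glutathione peroxidases such as *Gpx1* and *Gpx4*.

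Because hnRNP L acts on splicing, exon usage of the members was examined in the 5 libraries with exon bin counts, the 3 wt embryos and hnRNP L deficient embryos 2 and 3. Usage is the change of an exon bin, a stretch of exon used by the same transcripts, relative to the rest of its gene. Of 475 bins in the members, 400 in 35 members had enough reads to be tested, with a median of 721 reads. None was called by diffSpliceDGE at an adjusted p under 0.05, where 0.0288% of all 176996 bins were called, and 4 had an unadjusted p under 0.05 (1% of member bins and 1.02% of all bins). The median size of the change was 0.08 on the log2 scale for member bins and 0.13 for all bins. *Hnrnpl* RNA remained at 242 to 288 CPM in the hnRNP L deficient embryos. The study raises the possibility that cells with incomplete deletion and leftover hnRNP L protein make splicing changes hard to detect. That was not tested here.

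The smallest p-values belonged to *Txnrd2*, whose gene-level count did not differ. Bin 10 of *Txnrd2* took 0.512%, 0.686% and 0.659% of the bin reads of the gene in wt embryos 1 to 3 and 1.51% and 1.45% in hnRNP L deficient embryos 2 and 3. These shares came from 69, 90 and 134 reads in wt and 239 and 247 reads in hnRNP L deficient embryos. Usage was higher in both hnRNP L deficient libraries, by 1.25 on the log2 scale (adjusted p = 0.941 by diffSpliceDGE of edgeR). Limma's diffSplice called it (adjusted p = 0.00255, 0.124% of all bins called), and so did diffSpliceDGE without wt embryo 2 (1.32, adjusted p = 0.00535, 0.0886% of all bins called). Bin 26 of *Txnrd2* took 0.104%, 0.16% and 0.0786% of the reads in wt and 0.562% and 0.275% in hnRNP L deficient embryos, a log2 change of 1.92 (adjusted p = 1 by diffSpliceDGE of edgeR and 0.0553 by diffSplice of limma). It was called by diffSpliceDGE without wt embryo 2 (2.22, adjusted p = 0.0288), and its change was 1.30 without hnRNP L deficient embryo 2. These were the 2 member bins with an unadjusted p under 0.01 and more than a 2-fold change, a rule that 0.246% of all bins met. In both bins the hnRNP L deficient libraries lay above the wt libraries, and both held a small part of the reads of the gene. The bins carry no coordinates in the counts used here, so that the exons were not identified. *Gclm* is counted together with *Gm6061* in the exon bins.

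**Figure D5:**
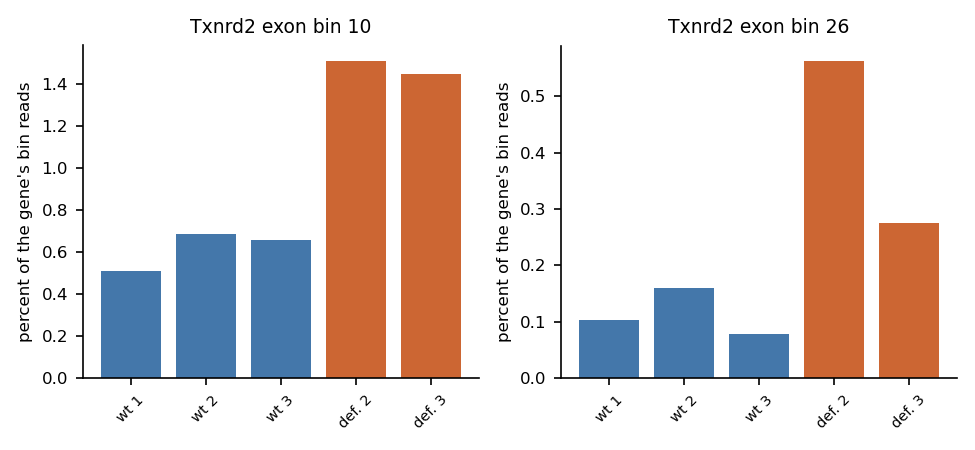
Percent of the exon bin reads of *Txnrd2* that fell on bins 10 and 26 in wt embryos 1 to 3 (blue) and hnRNP L deficient embryos 2 and 3 (orange). Bin 10 held at most 0.686% in wt and at least 1.45% in hnRNP L deficient embryos, and bin 26 at most 0.16% and at least 0.275%, without passing the diffSpliceDGE threshold in all 5 libraries.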

How the data were processed

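Paired-end reads of stranded mRNA libraries were aligned to GRCm38 by the authors (Tophat 2.0.10). HTSeq gave reads per Ensembl gene and the DEXSeq script reads per exon bin, and the deposited counts are not normalized. Reads that did not align uniquely, 39.8% to 44.7% of all reads, were not counted. The Ensembl release is not given in the sources used here. Genes kept by the default filter were normalized by TMM and compared by the quasi-likelihood test of edgeR 4.0.16 in R 4.3.3 with robust estimation, and p-values were adjusted over all genes by Benjamini-Hochberg. A standard error is the size of the log2 change over the root of its F. For exon usage, diffSpliceDGE was run on bins averaging 10 reads or more. DESeq2 1.42.0 and limma 3.58.1 served as alternatives. The steps were tested on simulated data. Gene positions and exon lengths are from GENCODE on GRCm38, promoters from RefSeq on GRCm38.p6.

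The members, compartments and other lists were chosen with earlier results of these data known. All members are accounted for. Values per library are given for members called, members with a log2 fold change of at least 1 in size, and a fixed set of central members. Of the other pathway genes, 8 with the smallest adjusted p and *Bach1*, *Cul3*, *Txnip* and *Slc7a11* were fixed, and the remaining genes named were chosen after their values were seen. Embryos were compared without pairing. Each library is a separate embryo, so p-values measure the spread between embryos. An exact test of 3 against 3 cannot go below p = 0.1, so no such test was used.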

Additional observations from a re-analysis of the deposited data

How the results depend on the processing

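The 5 members called kept their direction under every alternative, and kept the call with median-of-ratios factors, DESeq2, limma-voom, other filters and no robust estimation, except that *Srxn1* lost it with total counts. Members called higher numbered 8 with limma-voom and 0 above a 2-fold change, and those called lower numbered 3 with DESeq2, 2 with limma-voom and 0 above 2-fold. Leaving out each library gave 0 to 8 members higher and 0 to 5 lower (the lowest with edgeR without wt embryo 3 or any hnRNP L deficient embryo, the highest with DESeq2 without wt embryo 1; 8 higher also without wt embryo 2), 0 to 9 other pathway genes higher and 0 to 20 lower. Calls over all genes moved as well. With edgeR without wt embryo 3, 5 of 14659 genes were called higher and 0 lower. With DESeq2 without wt embryo 1, 2887 of 16238 genes were called higher and 3042 lower. The cause was not tested. Other pathway genes called higher were 8 with DESeq2 and 8 with limma-voom, and 1 above 2-fold. Those called lower were 18 with limma-voom and 2 above 2-fold. Of all genes, DESeq2 called 12.4% higher and 14.3% lower, and limma-voom 17.6% higher and 19.1% lower.

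The median log2 fold change of cytosolic members was 0.118 with total counts, 0.065 with limma-voom and 0.049 to 0.209 without a library (lowest without wt embryo 2), and that of mitochondrial members 0.029 to 0.170 without a library. With members of both compartments they were -0.035 and -0.049. Members near 0 changed sign: with limma-voom *Prdx1* (0.02), *Prdx4* (0.00), *Prdx5* (0.10) and *Glrx2* (0.06), with total counts *Gsr* (-0.04), and without a library *Prdx1* (-0.10 to 0.01), *Prdx2* (-0.09 to 0.02), *Prdx4* (-0.06 to 0.01), *Prdx5* (-0.29 to 0.28), *Txnrd3* (-0.18 to 0.05), *Glrx2* (-0.08 to 0.09), *Gsr* (-0.17 to 0.48) and *Keap1* (-0.07 to 0.03). Member bins called were 1 with diffSplice, 2 at an unadjusted p under 0.01 and over 2-fold, and 0 to 2 without a library (2 without wt embryo 2).

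No paired analysis was possible because the embryo numbers in the labels share a first part between the groups for 1 pair only, and the replicate numbers used here follow the order of the libraries. Depth limits *Gpx7* and *Gpx8*, which were too low to compare. Reads shared with copies were not counted, which affects *Gpx4*, *Gstp1*, *Sod2*, *Gstm1* and *Glrx3*.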
